A study of Mus musculus with 17 samples.

Results

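Skin keratinocytes are the epithelial cells of the epidermis and hair follicle, and 658 cells of this kind were found among 30085 kept cells of 8 skin libraries (91829 kept cells in the whole series). A cell was kept with at least 200 genes and at most 20% of its unique molecular identifiers (UMIs) from mitochondrial genes. It was counted as a keratinocyte with at least 20 UMIs of Krt5, Krt14, Krt15 and Krt17 together, at least 2 UMIs of Perp, Dsp and Sfn together and no UMI of Ptprc, which encodes the leukocyte antigen CD45. The cells were thus chosen by measured UMIs of these 8 genes, so their values below are a description and support nothing, also where a list or a fit holds them.

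The study asked how bleomycin, which induces skin fibrosis, and overexpression of SARA in Pdgfrb-lineage cells alter cells of the mouse skin. All mice were 8 weeks old and carried PDGFRb-Cre and the Z/EG reporter, which turns on GFP once Cre has acted, and GFP+ cells were sorted from digested skin. SARAWT mice, by the labels, had no SARA transgene. SARATg mice carried a human ZFYVE9 cDNA, which encodes SARA, that Cre switches on. Bleomycin was injected subcutaneously at 20 mg/kg, by the labels 3 times a week for 2 weeks, and controls received PBS. The paper's methods instead give a daily schedule over 2 weeks, with skin taken 1 week after the last injection. There were 3 SARAWT PBS, 3 SARAWT bleomycin, 1 SARATg PBS and 1 SARATg bleomycin libraries. Cre under the Pdgfrb promoter marks cells by lineage rather than by current Pdgfrb expression. How keratinocytes came to be among the sorted cells was not tested. The sources used here do not say how many mice gave each library, and p-values therefore measure the spread between libraries.

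The libraries labelled SARAWT PBS 1 and SARAWT PBS 3 went against their labels in the targeted gene. Levels are given throughout as counts per 1000000 UMIs (CPM) of the summed cells. Human ZFYVE9, an entry of the longer of 2 gene lists, had 667 CPM in keratinocytes of the library labelled SARAWT PBS 1. It had 66.8 CPM in SARAWT PBS 2 and 47.3 and 40.1 CPM in SARAWT bleomycin 1 and 2, the other libraries counted with that list. Mouse Zfyve9 had 509 CPM in keratinocytes of the library labelled SARAWT PBS 3, above SARATg PBS (286 CPM) and SARATg bleomycin (180 CPM). Its level in SARAWT bleomycin 3, counted with the same shorter list, was 20.6 CPM. The remaining libraries had 51.8, 78.3, 74.7 and 65.1 CPM (labelled SARAWT PBS 1, SARAWT PBS 2 and SARAWT bleomycin 1 and 2). In the other kept cells the same libraries were highest, with human ZFYVE9 at 844 CPM in the library labelled SARAWT PBS 1 and mouse Zfyve9 at 630 CPM in that labelled SARAWT PBS 3. These are the only SARAWT PBS libraries with 10 or more keratinocytes, so each SARAWT comparison of gene levels rests on them. In those comparisons both PBS libraries had this high SARA signal and no bleomycin library did. Differences given below as bleomycin against PBS in SARAWT therefore cannot be told apart from differences in that signal. The counts of genes past the threshold and several list counts are also given with SARAWT PBS 2 in their place. Of its 9 keratinocytes, 7 carry a barcode that another skin library also held, and 2 are left without such barcodes. Over all skin libraries, 3 barcodes were keratinocytes in more than 1 library, covering 9 member cells. Whether levels in SARAWT PBS 2 partly copy another library was not tested, so it cannot be taken as an independent control.

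Keratinocytes of the basal layer attach to the basement membrane through integrins and collagen XVII, divide, and carry a keratin network of Krt5 and Krt14. On leaving the basal layer they switch to Krt1 and Krt10, strengthen their desmosomes and begin the cornification programme that seals the skin. The hair follicle holds related cells. Those of its upper part, the infundibulum and sebaceous duct, are marked by Krt79 and Krt17, while the growing lower follicle has keratins of its own in the outer root sheath, companion layer and inner root sheath.

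Keratinocytes were a small part of each library. The library labelled SARAWT PBS 1 held 71 of 4076 kept cells (1.74%, exact Clopper-Pearson 95% interval 1.36 to 2.19). SARAWT PBS 2 held 9 of 781 (1.15%, 0.528 to 2.18), and the library labelled SARAWT PBS 3 held 195 of 4636 (4.21%, 3.65 to 4.82). In the SARAWT bleomycin libraries the numbers were 17 of 2155 (0.789%, 0.460 to 1.26), 27 of 2168 (1.25%, 0.822 to 1.81) and 42 of 6548 (0.641%, 0.463 to 0.866). SARATg PBS held 174 of 4556 (3.82%, 3.28 to 4.42), and SARATg bleomycin held 123 of 5165 (2.38%, 1.98 to 2.83). The intervals cover counting error only.

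**Figure D1:**
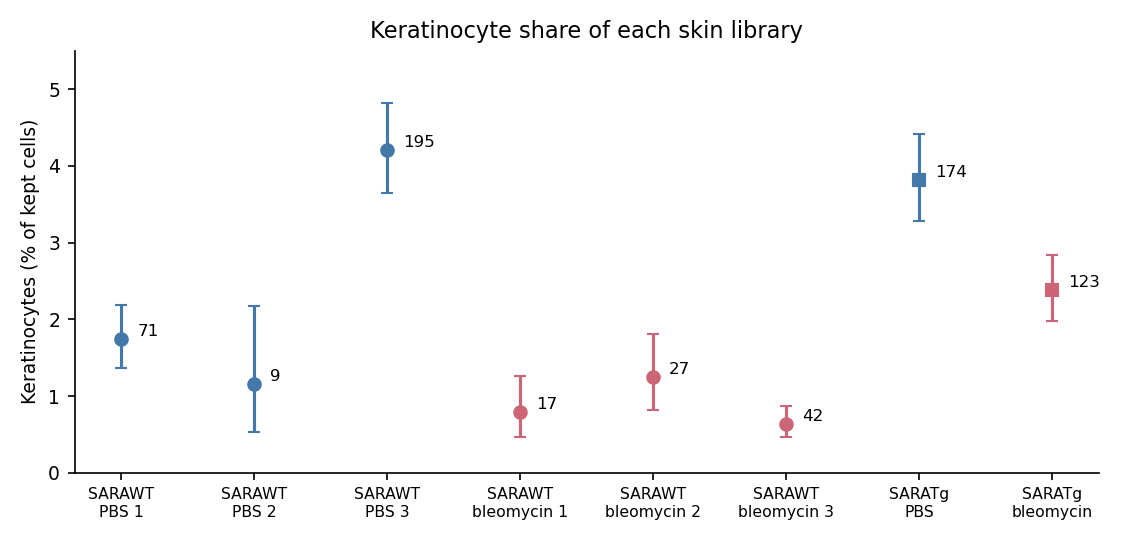
Keratinocytes as a percentage of kept cells in each of the 8 skin libraries, with the number of keratinocytes beside each point and exact 95% Clopper-Pearson intervals as bars (blue, PBS; red, bleomycin; circles, SARAWT; squares, SARATg). The 3 SARAWT bleomycin libraries lie between 0.641 and 1.25%, and SARAWT PBS 2 at 1.15% lies among them.

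The cells were deeply measured. They held 10456963 UMIs in all, with a median per cell between 6282 UMIs (SARAWT bleomycin 1) and 17718 UMIs (labelled SARAWT PBS 3). Their median share of mitochondrial UMIs ran from 1.93 to 6.42% by library. At the edge of the rule, 36 members had 20 to 24 keratin UMIs, and 27 further cells that met all other criteria had 15 to 19. Another 97 cells met the keratin and junction minimums but held a Ptprc UMI. A doublet caller marked 35 members, and 19 members carried a barcode that another skin library also held, 7 of them among the 9 members of SARAWT PBS 2.

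All 17 epidermal markers on the list were detected, and together they had 24809 to 45540 CPM in keratinocytes against 182 to 2805 CPM in the other kept cells. Part of this is fixed by the rule, which required the keratins. Krt14, the type I keratin of basal cells, averaged 4712 CPM over the 7 libraries with at least 10 keratinocytes and 24.9 CPM in the other cells. Krt5, its type II partner, averaged 3039 against 18.1 CPM. The label keratinocyte was checked on the 10 markers of the list that the rule did not use. Of these, 9 were higher in keratinocytes than in the other kept cells in all 8 libraries, and Krt1 in 7, being lower in SARAWT bleomycin 1 (6.79 against 16.8 CPM). Trp63, the transcription factor that maintains stratified epithelia, averaged 320 against 6.07 CPM, and Cdh1, the epithelial cadherin, 238 against 22.9 CPM. Genes picked for the largest ratio to the other cells, which had to be high, are given as a description only. Among them Lgals7, the epidermal galectin-7, averaged 11250 CPM against 295 CPM, and Col17a1, the collagen XVII of hemidesmosomes, 585 against 6.73 CPM. Cst6, a cystatin that inhibits epidermal proteases, averaged 5959 against 22.9 CPM, and Defb6, a beta-defensin, 3353 against 21.4 CPM. Fxyd3, a regulator of the sodium pump, varied little, between 1000 and 1474 CPM in these 7 libraries.

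Genes of most other cell types were low, with exceptions in some libraries. The sebocyte list was not low, with 211 to 1374 CPM in the 7 libraries with at least 10 keratinocytes against 231 to 388 CPM in the other cells. Only in SARAWT bleomycin 1 was it below the other cells (211 against 388 CPM). The leukocyte list had 127 to 565 CPM in the 7 libraries with at least 10 keratinocytes against 18863 to 28023 CPM in the other cells, and Ptprc was at 0 by the rule. Melanocyte and Merkel cell lists were low but not absent. The melanocyte list had 69.1 CPM in keratinocytes of the library labelled SARAWT PBS 1 against 9.63 CPM in its other cells, and 0 to 20.2 CPM in the other 7. The Merkel list had 25 and 28.6 CPM in the libraries labelled SARAWT PBS 1 and 3 against 9.22 and 5.41 CPM in their other cells. It was also higher than in the other cells in SARAWT PBS 2 (22.4 against 11.9 CPM), SARATg PBS (13.2 against 5.67) and SARAWT bleomycin 2 (6.20 against 5.70). In the remaining bleomycin libraries it was lower. Tyr and Atoh1 were at 0 in keratinocytes of every library, but 4 of 5 melanocyte and 5 of 6 Merkel genes were detected. Pdgfrb, whose promoter drives the Cre, had 21 UMIs over all 658 keratinocytes and 0 to 5.45 CPM by library. The fibroblast list had 6696 CPM in SARATg PBS keratinocytes and 34.1 to 357 CPM in the other 6, and the skeletal muscle list 871 CPM in SARATg PBS, 199 CPM in the library labelled SARAWT PBS 3 and 6.79 to 43.4 CPM elsewhere. The mural list, through Tagln and Acta2, had 377 and 271 CPM in the libraries labelled SARAWT PBS 1 and 3 and 19.5 to 102 CPM in the other 5, with 6 of its 7 genes detected and Rgs5 at 0.

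The keratinocytes were divided by keratin UMIs per 10000 UMIs of the cell, which makes the classes ranges of a level rather than cell types. Cells with at least 10 each of Krt79 and Krt17 formed the Krt79/Krt17 follicle class, with 120 cells (18.2%). Of the rest, cells with at least 50 of Krt1 and Krt10 together formed the Krt1/Krt10 class, with 110 cells (16.7%). Cells with at least 30 of Krt5, Krt14 and Krt15 together formed the basal class, with 338 cells (51.4%). The remaining 90 cells (13.7%) are called low-keratin. Near the cuts, within 0.8 to 1.25 times the value, lay 3 cells for Krt79, 6 for Krt17, 8 for Krt1 and Krt10 and 39 for Krt5, Krt14 and Krt15. The low-keratin cells had the highest median depth, 22297 UMIs, against 11618 in basal, 14094 in Krt79/Krt17 and 18950 in Krt1/Krt10 cells. Part of this is fixed by the cuts. The rule asks for at least 20 keratin UMIs, whereas this class has under 30 per 10000 of Krt5, Krt14 and Krt15. A shallow cell can thus enter it only through Krt17, which also limits the class in shallow libraries.

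The promoters of Krt5, Krt10 and Krt79 are shown because each keratin marks 1 of the 3 named classes. The sequences are the 100 bases before the RefSeq start site in GRCm38.p6, all on the minus strand, at chr15:101712906-101713005 for Krt5, chr11:99389365-99389464 for Krt10 and chr15:101940325-101940424 for Krt79.
Krt5: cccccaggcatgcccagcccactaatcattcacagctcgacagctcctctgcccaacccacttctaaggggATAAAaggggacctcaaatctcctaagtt
Krt10: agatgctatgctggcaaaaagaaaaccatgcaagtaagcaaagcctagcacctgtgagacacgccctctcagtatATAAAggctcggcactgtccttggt
Krt79: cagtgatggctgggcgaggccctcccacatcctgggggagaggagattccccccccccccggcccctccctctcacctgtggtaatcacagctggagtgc
Capitals mark ATAAA, part of the TATA box, searched on both strands with its first base 40 to 20 bases before the start. Krt5 has it 29 bases and Krt10 25 bases before the start, where it is part of TATAAA in Krt10 but not in Krt5, and Krt79 has no match in this window. Of 32851 RefSeq promoters, each from 250 bases before to 50 after the start, 6.32% hold ATAAA in the same window. Krt5 and Krt79 lie on chromosome 15 in the type II keratin cluster, and Krt10 on chromosome 11 with Krt14, Krt15 and Krt17.

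Basal cells had the adhesion genes of the basal layer. Class levels are means ± SD over the libraries in which the class had 10 or more cells, which were 7 for basal, 4 each for Krt1/Krt10 and Krt79/Krt17 and 2 for low-keratin cells. Since the classes were cut from these cells, the levels are a description with no test. Krt5 had 5167 ± 2095 CPM, Krt14 7265 ± 2966 CPM and Krt15 3272 ± 2473 CPM in basal cells. Col17a1 had 991 ± 368 CPM in basal cells against 422 ± 208 in Krt1/Krt10 and 46.0 ± 29.7 in Krt79/Krt17 cells. Itgb4, the hemidesmosomal integrin subunit, had 178 ± 77.2 against 30.9 ± 17.7 and 18.8 ± 12.1 CPM, and Itgb1 197 ± 52.7 against 48.2 ± 24.6 and 16.3 ± 14 CPM. Trp63 varied less between these classes, with 423 ± 85.0, 273 ± 98.3 and 118 ± 26.7 CPM. Postn, the matrix protein periostin, had 552 ± 205 CPM in basal cells and 52.4 ± 22.8 CPM or less in each other class.

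The Krt1/Krt10 cells carried genes of the suprabasal epidermis. Krt1 had 6792 ± 2820 CPM and Krt10 12272 ± 1475 CPM there, against 128 ± 184 and 135 ± 111 CPM in basal cells. Krtdap, a secreted protein of differentiating keratinocytes, had 6451 ± 747 against 552 ± 601 CPM. Dsg1a, a desmosomal cadherin of the upper layers, had 725 ± 94.2 against 88.6 ± 58.5 CPM. Mt4, the metallothionein of stratified epithelia, had 1227 ± 434 CPM in this class, 31.4 ± 66.4 CPM in basal and 6.02 ± 12.1 CPM in Krt79/Krt17 cells.

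The Krt79/Krt17 cells had a differentiation profile that differed from that of the Krt1/Krt10 cells. Krt79 had 12080 ± 2069 CPM and Krt17 17320 ± 375 CPM by the cut. Cst6 had 26402 ± 9586 CPM against 125 ± 193 CPM in basal and 182 ± 114 CPM in Krt1/Krt10 cells, and Defb6 10626 ± 1324 CPM against 783 ± 565 and 404 ± 425 CPM. Dsc1, a desmosomal cadherin, had 246 ± 78.0 CPM here and 26.1 ± 43.2 CPM in Krt1/Krt10 cells. Klk7, a protease of cell shedding, had 770 ± 369 against 54.3 ± 55.3 CPM, and Spink5, an inhibitor of such proteases, 368 ± 123 against 49.8 ± 36.9 CPM. Krtdap and Dsg1a were at 5178 ± 1832 and 625 ± 40.1 CPM, near their Krt1/Krt10 levels, whereas Col17a1 was the lowest of the 4 classes. Sox9, a regulator of follicle cells, had 469 ± 99.7 CPM here, 380 ± 141 CPM in basal and 92.5 ± 112 CPM in Krt1/Krt10 cells.

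**Figure D2:**
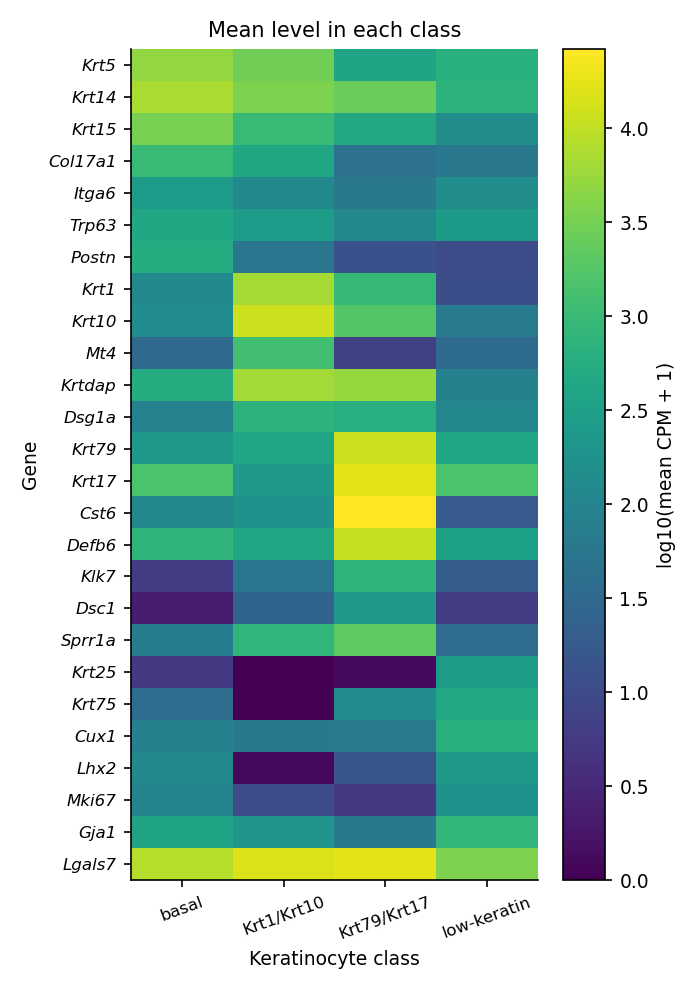
Mean level of 26 genes (rows) in the 4 keratinocyte classes (columns) as log10 of mean CPM + 1 over the libraries in which the class had 10 or more cells. The adhesion genes at the top are high in basal cells, Krt1, Krt10 and Mt4 in Krt1/Krt10 cells, Krt79, Cst6, Klk7 and Dsc1 in Krt79/Krt17 cells, and Krt25, Krt75 and Cux1 in low-keratin cells.

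The low-keratin cells came mostly from the libraries labelled SARAWT PBS 1 (17 cells) and SARAWT PBS 3 (57 cells), which together held 74 of the 90. The genes named for them here were chosen after their values were seen. Cux1, a homeodomain factor of hair follicle cells, had 644 ± 179 CPM (n = 2 libraries) against 81.9 ± 75.7 CPM in basal cells. Lhx2, a follicle stem cell factor, had 245 ± 204 CPM, and Gja1, the gap junction protein connexin 43, 831 ± 267 CPM. Neither was particular to this class in the libraries labelled SARAWT PBS 1 and 3. In their basal cells, as log2 of CPM + 1, Gja1 had 10.0 and 9.60 and Lhx2 8.58 and 6.58. Low-keratin means come from these 2 libraries and basal means from 7, so class and library are not separated in these contrasts. Mki67, a marker of dividing cells, had 187 ± 46.6 CPM against 95.5 ± 62.1 CPM in basal and 9.62 ± 17.1 CPM in Krt1/Krt10 cells. Stmn1, a microtubule regulator high in dividing cells, had 756 ± 176 against 320 ± 129 CPM in basal cells.

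Keratins of the growing follicle were highest in the library labelled SARAWT PBS 3. Krt75, the companion layer keratin, had 469 CPM in its keratinocytes and 0 to 16.3 CPM in the other 7 libraries. Krt25, an inner root sheath keratin, had 224 CPM there and 0 to 6.72 CPM elsewhere. Other inner root sheath keratins were less unequal, with Krt28 at 74.5 CPM there, 31.7 CPM in the library labelled SARAWT PBS 1 and 17.7 CPM in SARATg bleomycin. Krt71 had 46.4 CPM there, 16.3 CPM in the library labelled SARAWT PBS 1 and 9.31 CPM in SARAWT bleomycin 2. Cells with at least 10 UMIs per 10000 of Krt25, Krt27, Krt28 and Krt71, the inner root sheath keratins, numbered 21, all in this library (10.8% of its 195), and 20 of them were low-keratin cells. None of 71 cells in the library labelled SARAWT PBS 1 met this cut.

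The share of keratinocytes among kept cells did not differ between treatments beyond the spread of libraries. The SARAWT bleomycin mean was 0.892% ± 0.315 (SD, n = 3) and the SARAWT PBS mean 2.37% ± 1.62 (SD, n = 3), a difference of -1.47 percentage points (exact permutation test, two-sided, p = 0.2). With 3 against 3 libraries the smallest p is 0.1. Between the SARATg libraries, 1 for each treatment, the difference was -1.44 points. Among kept cells with no Ptprc UMI the SARATg shares were 8.12% with PBS and 8.42% with bleomycin, the other direction, and the SARAWT difference was -3.31 points (exact permutation p = 0.4). Without the libraries labelled SARAWT PBS 1 and 3, the SARAWT difference was -0.26 points, between 1 PBS library and 3 bleomycin libraries. The share counts sorted cells and gives no number of keratinocytes in the skin.

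The mix of classes varied between libraries. Krt79/Krt17 cells were 11.3% (95% interval 4.99 to 21.0) and 9.74% (5.97 to 14.8) of keratinocytes in the libraries labelled SARAWT PBS 1 and 3. In the SARAWT bleomycin libraries they were 11.8% (1.46 to 36.4), 14.8% (4.19 to 33.7) and 33.3% (19.6 to 49.5). All 3 lay above both PBS libraries, but the intervals of the first 2 covered the PBS values. The means were 20.0% ± 11.7 (SD, n = 3) and 10.5% ± 1.08 (SD, n = 2), with an exact permutation p of 0.2, the smallest that 2 against 3 libraries can give. Without SARAWT bleomycin 3 the difference of 9.47 points became 2.78 points (exact permutation p = 0.333, the smallest possible). Without the low-keratin class in the denominator the shares were 14.8% and 13.8% with PBS against 11.8%, 14.8% and 35.0% with bleomycin, which overlapped (difference 6.24 points, exact permutation p = 1). In SARATg the share was 10.3% (6.25 to 15.9) with PBS and 43.9% (35.0 to 53.1) with bleomycin, a difference of 33.6 points between 2 libraries with no replicate.

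Krt1/Krt10 cells were 18.3% and 10.8% of keratinocytes in the libraries labelled SARAWT PBS 1 and 3. The SARAWT bleomycin libraries had 0 of 17 (upper bound 19.5%), 18.5% and 4.76%, which overlapped the PBS values (means 7.76% ± 9.62, n = 3, and 14.5% ± 5.33, n = 2, SD; exact permutation p = 0.6). SARATg PBS had 31.0% (24.3 to 38.5) and SARATg bleomycin 11.4% (6.36 to 18.4). Basal cells were 46.5% and 50.3% in the libraries labelled SARAWT PBS 1 and 3 and 88.2%, 66.7% and 57.1% after bleomycin (exact permutation p = 0.2, the smallest possible), and 55.2% and 39.0% in SARATg PBS and bleomycin. Without the low-keratin class the basal shares were 61.1% and 71.0% against 88.2%, 66.7% and 60.0%, which overlapped (exact permutation p = 1). SARAWT PBS 2, with 9 keratinocytes, held 6 basal cells and 1 of each other class.

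**Figure D3:**
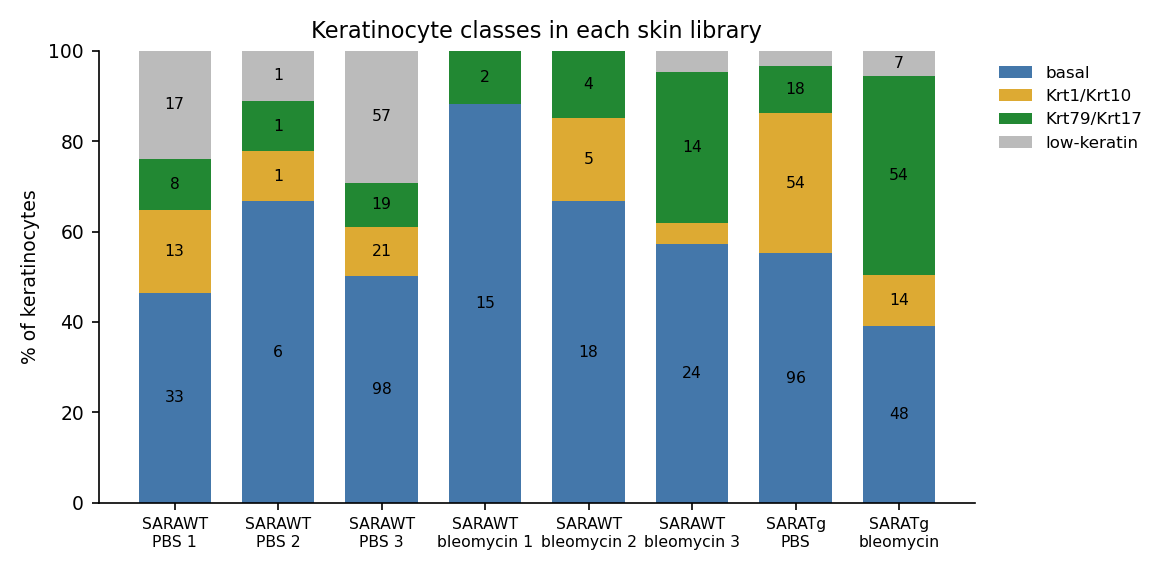
Percentage of keratinocytes in each class by library, with the number of cells in each segment that has room for it. The Krt79/Krt17 segment is largest in SARATg bleomycin (54 of 123 cells), and the low-keratin segment in the libraries labelled SARAWT PBS 1 and 3 (17 and 57 cells).

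Bleomycin and PBS were then compared in SARAWT keratinocytes by summing UMIs per library (2 PBS libraries, those labelled SARAWT PBS 1 and 3, against 3 bleomycin libraries). Of 6585 genes tested, 3 passed an adjusted p of 0.05 in edgeR's quasi-likelihood test with Benjamini-Hochberg adjustment (0.0456%), and all 3 were lower with bleomycin. At an unadjusted p under 0.05 there were 782 genes, and DESeq2 called 91, with 43 higher and 48 lower. With the gene list, which divides both treatments, as a covariate only Tagln passed. The count was 0 when SARAWT bleomycin 3 was left out and 29 when the library labelled SARAWT PBS 1 was. Leaving out SARAWT bleomycin 2 gave 2 genes, both higher with bleomycin and neither among these 3. A minimum of 30 cells, which leaves 3 libraries, gave 7 higher and 1 lower, with 1 of these 3 among them.

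Tagln (chr9:45929619-45936058), which encodes the actin-binding protein transgelin, had 285 and 148 CPM in the libraries labelled SARAWT PBS 1 and 3. It had 6.79, 3.1 and 0 CPM in SARAWT bleomycin 1 to 3, from 2 UMIs in all against 845, a ratio of 89.3 PBS over bleomycin (exact 95% interval 24.7 to 739, counting error only). The log2 fold change was -6.53 ± 0.68 (SE; adjusted p = 0.0376). The groups did not overlap. Outside this fit Tagln was at 0 CPM in SARAWT PBS 2, 1.56 CPM in SARATg PBS and 3.45 CPM in SARATg bleomycin, so only the 2 libraries that went against their labels were high.

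Slc39a10 (chr1:46807544-46892852), a zinc importer, had 422 and 167 CPM in the libraries labelled SARAWT PBS 1 and 3 against 13.6, 18.6 and 20.6 CPM with bleomycin (log2 fold change -3.85 ± 0.47 SE, adjusted p = 0.0413). Cux1 (chr5:136248135-136567490) had 373 and 243 CPM against 27.2, 43.4 and 43.0 CPM (log2 fold change -2.85 ± 0.34 SE, adjusted p = 0.0413). For both genes the remaining PBS libraries were lower than these 2, with Slc39a10 at 33.6 and 23.8 CPM and Cux1 at 67.1 and 80.3 CPM in SARAWT PBS 2 and SARATg PBS. Cux1 was also high in the low-keratin class, which was common in these 2 libraries. Without that class only Tagln passed, while the log2 fold change of Cux1 was -1.53 (adjusted p = 0.213) and that of Slc39a10 was -3.81 (adjusted p = 0.121). Without the libraries labelled SARAWT PBS 1 and 3, and with the 9 cells of SARAWT PBS 2 in their place, edgeR called 0 genes (280 at an unadjusted p under 0.05). That PBS arm is 1 library, so its spread was taken from the bleomycin libraries and the 0 does not show that levels were alike.

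In several gene lists most members differed in the same direction, without any member passing. Of 18 tested proliferation genes, all 18 had a negative log2 fold change (median -1.22, against 0.02 over all genes tested) and 10 were lower in every bleomycin library than in both PBS libraries, as were 18.3% of all genes tested. With SARAWT PBS 2 alone as control, 3 of 18 lay below it in every bleomycin library and 7 of 18 above it, against 29.1% and 34.2% of all genes tested. Top2a, a topoisomerase of dividing cells, had 195 and 89.3 CPM in the libraries labelled SARAWT PBS 1 and 3 and 61.1, 43.4 and 26.2 CPM with bleomycin. In the interferon and major histocompatibility list 9 of 15 were higher in every bleomycin library (9.83% of all genes tested), with a median of 1.09, and 10 of 15 were above SARAWT PBS 2 (34.2% of all genes). Of 19 immediate early genes 15 lay below both PBS libraries (median -0.98), and 9 of 19 below SARAWT PBS 2 (29.1% of all genes). B2m, the light chain of class I molecules, had 1100 and 788 CPM against 1678, 2457 and 2457 CPM. In SARAWT PBS 2 it had 1443 CPM, and in SARATg PBS 1649 CPM, close to SARATg bleomycin at 1545 CPM. In the fit over both genotypes given below, 15 of 17 interferon and major histocompatibility genes tested had a positive log2 fold change. None of the 17 lay above every PBS library in every bleomycin library, against 3.51% of all genes tested.

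The same comparison within basal cells holds the mix of classes more nearly fixed, with 33 and 98 basal cells in the libraries labelled SARAWT PBS 1 and 3 and 15, 18 and 24 after bleomycin. Keratins of the growing follicle still differed within the basal class, given as log2 of CPM + 1. Krt75 had 7.91 in the library labelled SARAWT PBS 3 and 0 in SARAWT bleomycin 3. It had 2.78 in the library labelled SARAWT PBS 1 and a mean of 1.52 in SARAWT bleomycin 1 and 2. Krt71 was closer, at 2.23 and 2.20 in the first pair and 3.30 and 2.25 in the second. Except for the Krt75 value of 7.91, these levels rest on few or no UMIs. In basal cells of SARAWT bleomycin 3, for instance, 1 UMI makes 3.58 CPM. The part of growing follicle cells in the levels below was not tested. Of 4530 genes tested, 11 passed (0.243%) by edgeR's quasi-likelihood test with an adjusted p of at most 0.0455, 1 higher (0.0221%) and 10 lower (0.221%). DESeq2 called 64 genes, and with the gene list as a covariate edgeR called 24, all 11 among them. Against the libraries labelled SARAWT PBS 1 and 3, Gata6 was higher with bleomycin. Tagln, Acta2, Col4a1, Basp1, Slc7a8, Ckb, Nr4a1, Tnc, Hbegf and Arl5b were lower. Without the libraries labelled SARAWT PBS 1 and 3, and with the 6 basal cells of SARAWT PBS 2 as an unreplicated arm, edgeR called 0 genes (208 at an unadjusted p under 0.05). It also called 0 without SARAWT bleomycin 2 or 3, 3 without SARAWT bleomycin 1, and 24 and 39 without the libraries labelled SARAWT PBS 1 and 3.

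Gata6, a transcription factor of the upper follicle and sebaceous duct, had 8.83 and 11.1 CPM in basal cells of the libraries labelled SARAWT PBS 1 and 3. It had 68.7, 79.3 and 75.3 CPM in SARAWT bleomycin 1 to 3 (log2 fold change 2.90 ± 0.45 SE, adjusted p = 0.0455). The groups did not overlap, but the levels came from 21 UMIs with PBS and 41 with bleomycin. Of the 17 upper follicle and sebaceous genes tested, 5 were higher in every bleomycin library than in both PBS libraries, against 7.79% of all genes tested. With SARAWT PBS 2 as control it was 8 of 17 against 38.5% of all genes. Gata6 had 42.1 CPM in SARAWT PBS 2 from 2 UMIs, and 12.3 and 14.1 CPM in SARATg PBS and SARATg bleomycin. The bleomycin difference in SARAWT therefore had no counterpart of its size between the SARATg libraries, and the difference between genotypes was not tested.

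Hbegf, a growth factor for keratinocyte migration, had 327 and 271 CPM in basal cells of the libraries labelled SARAWT PBS 1 and 3 against 30.5, 28.8 and 46.6 CPM with bleomycin (log2 fold change -2.86 ± 0.41 SE). Nr4a1, an immediate early nuclear receptor, had 462 and 166 CPM against 15.3, 28.8 and 28.7 CPM (-3.44 ± 0.53). Arl5b, a small GTPase, had 165 and 107 CPM against 15.3, 21.6 and 17.9 CPM (-2.72 ± 0.43). These 3 genes also had higher levels in SARATg PBS than in SARATg bleomycin, with Hbegf at 140 and 30 CPM, Nr4a1 at 206 and 31.7 CPM and Arl5b at 57.2 and 26.4 CPM. In the 6 basal cells of SARAWT PBS 2, Nr4a1 had 190 CPM from 9 UMIs, and Hbegf and Arl5b had no UMI.

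The other genes with lower levels after bleomycin were low in SARATg PBS and in the 6 basal cells of SARAWT PBS 2. In SARAWT PBS 2, Tagln, Acta2, Col4a1, Basp1 and Slc7a8 had no UMI, and Ckb and Tnc had 21.1 CPM from 1 UMI each. Acta2 (chr19:34241090-34255590), smooth muscle actin, had 100 and 183 CPM in basal cells of the libraries labelled SARAWT PBS 1 and 3 and 0, 7.21 and 0 CPM with bleomycin, from 1 UMI against 332 (ratio 92.7, exact 95% interval 16.5 to 3674). Tagln had 859 and 295 CPM against 7.63, 7.21 and 0 CPM (log2 fold change -6.98 ± 0.79 SE). Tnc, the matrix protein tenascin C, had 127 and 96.6 CPM against 7.63, 14.4 and 14.3 CPM. In SARATg PBS, Acta2 was at 0, Tagln at 2.45 and Tnc at 6.54 CPM, below SARATg bleomycin (5.29, 8.81 and 58.2 CPM). Col4a1, a basement membrane collagen, Basp1, a membrane-bound signalling protein, Slc7a8, an amino acid transporter, and Ckb, brain-type creatine kinase, followed this pattern, with 68.3 to 483 CPM in the libraries labelled SARAWT PBS 1 and 3, 0 to 22.9 CPM with bleomycin and 0 to 12.3 CPM in SARATg PBS.

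Tagln and Acta2 UMIs lay in a few basal cells. In the library labelled SARAWT PBS 1, 5 of 33 basal cells held all 292 Tagln UMIs, each with at least 10 and up to 105. In the library labelled SARAWT PBS 3, 18 of 98 basal cells held 479 UMIs, 9 of them with at least 10 and up to 94. No other library had a basal cell with more than 4 Tagln UMIs. These counts were added after the levels were seen. The mural list was highest in keratinocytes of these same libraries, at 377 and 271 CPM, but it holds Tagln and Acta2. Its sum thus repeats their levels, with Tagln alone at 285 and 148 CPM, while Rgs5 was at 0. The part of mural transcripts in the result was not tested.

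**Figure D4:**
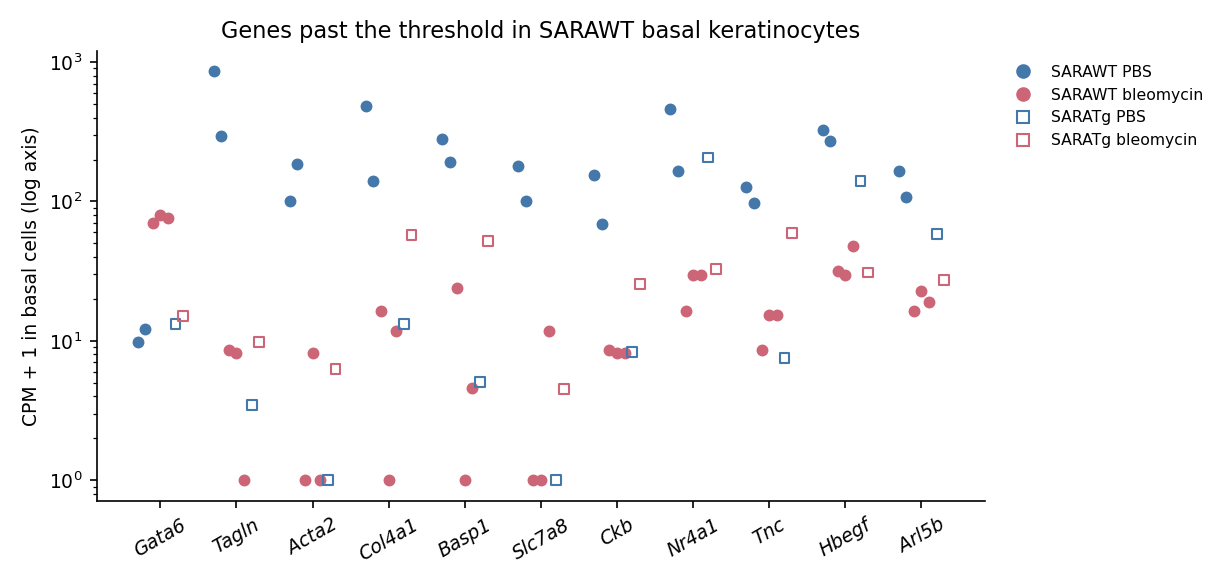
CPM + 1 on a log axis of the 11 genes past the threshold in basal keratinocytes, 1 point per library (filled circles, SARAWT libraries of the fit, where PBS are those labelled SARAWT PBS 1 and 3; open squares, SARATg, outside the fit). Gata6 is higher in the 3 SARAWT bleomycin libraries and the other 10 are lower, while the SARATg PBS square lies above the SARATg bleomycin square for Hbegf, Nr4a1 and Arl5b and below it for the other 8.

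The immediate early genes, which cells switch on within minutes of a stimulus or of tissue handling, had lower levels after bleomycin in SARAWT basal cells. All 19 tested members lay below both PBS libraries in every bleomycin library, as did 16.7% of all genes tested, with a median log2 fold change of -1.77 against 0.05. None passed on its own. Fos had a log2 fold change of -2.16 ± 0.38 (SE, adjusted p = 0.0662). With only the 6 basal cells of SARAWT PBS 2 as control, 12 of 19 lay below it in every bleomycin library, against 26.8% of all genes tested. Bleomycin breaks DNA, and p53 target genes respond to such damage. Of these, Cdkn1a, the cell cycle inhibitor p21, had a log2 fold change of -1.51 ± 0.57 (adjusted p = 0.388) and Mdm2 -1.78 ± 0.50 (adjusted p = 0.202). The lowest adjusted p of the list in edgeR was 0.0799. Of 13 tested, 5 had a positive log2 fold change. In every bleomycin library 6 of 13 were lower (16.7% of all genes) and 1, Perp, which was used to choose the cells, was higher (7.79% of all genes). With SARAWT PBS 2 as control 2 of 13 were lower and 4 higher, against 26.8% and 38.5% of all genes.

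Over both genotypes, with genotype and gene list as covariates and 7 libraries, no gene of 9044 passed in edgeR's quasi-likelihood test (0%). There were 834 genes at an unadjusted p under 0.05, the lowest adjusted p was 0.0650, and DESeq2 called 76, with 52 higher and 24 lower. The count was 77 when SARATg PBS was left out and 73 when SARATg bleomycin was. It was 10 and 2 when SARAWT bleomycin 1 or 2 was left out, and 9 in the absence of the library labelled SARAWT PBS 1. Without the libraries labelled SARAWT PBS 1 and 3, and with SARAWT PBS 2, edgeR called 62 genes (39 higher and 23 lower). Members of the lists follow as values only.

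Of 21 upper follicle and sebaceous genes tested, 15 had a positive log2 fold change and none passed. Cst6 had 2353, 2320 and 1425 CPM in keratinocytes of the libraries labelled SARAWT PBS 1 and 3 and of SARATg PBS. In SARAWT bleomycin 1 to 3 and SARATg bleomycin it had 5508, 6046, 14660 and 9398 CPM. These groups did not overlap (log2 fold change 2.19 ± 0.27 SE, adjusted p = 0.0664), and SARAWT PBS 2, at 5101 CPM in its 9 cells, lay just under the lowest bleomycin library. Krt17 had 1778, 3374 and 1549 CPM with PBS against 5637, 3816, 6626 and 7985 CPM with bleomycin (1.64 ± 0.25, a description, since Krt17 was used to choose the cells), and 962 CPM in SARAWT PBS 2. Defb6 had 1908, 1119 and 913 CPM against 3056, 5993, 5263 and 5218 CPM (1.99 ± 0.30, adjusted p = 0.0711), but 7215 CPM in SARAWT PBS 2. Krt79 overlapped, with 1046, 1282 and 1018 CPM against 1046, 3360, 3984 and 6836 CPM.

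Of these 21 genes, 5 lay above every PBS library in every bleomycin library, against 3.51% of all genes tested, with a median log2 fold change of 0.69 against 0.00 over all genes. Besides Cst6, Defb6 and Krt17, which was used to choose the cells, they included Aqp3, a glycerol and water channel. When SARAWT PBS 2 and SARATg PBS were the PBS libraries, 5 of 21 lay above both in every bleomycin library and 2 below, against 6.45% and 8.39% of all genes. The share of Krt79/Krt17 cells differed in the same direction, for instance 10.3% in SARATg PBS and 43.9% in SARATg bleomycin, so a different mix of classes and different levels per cell cannot be told apart here. In basal cells alone, with 1 CPM added, the log2 differences between SARAWT bleomycin and PBS were 1.93 for Cst6 among libraries with the longer gene list and 3.92 among those with the shorter list. They were 2.45 and 2.36 for Defb6, and -0.25 and -1.27 for Krt17, which was used to choose the cells and to cut the classes.

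Genes of cornification were described in the same way. All 11 tested cornified envelope genes had a positive log2 fold change (median 1.43), with 3 of 11 above every PBS library in every bleomycin library, against 3.51% of all genes tested. It was 6 of 11 against 6.45% with SARAWT PBS 2 and SARATg PBS as the PBS libraries. Sprr1a, a cross-linked envelope protein, had 355, 401 and 452 CPM with PBS (labelled SARAWT PBS 1 and 3, SARATg PBS) against 645, 1185, 707 and 1079 CPM with bleomycin (1.25 ± 0.27 SE, adjusted p = 0.179). Spink5 had 62.4, 24.3 and 53 CPM against 598, 83.8, 225 and 174 CPM (2.49 ± 0.60, adjusted p = 0.227). Dsc1 had 10.6, 15.9 and 26.5 CPM against 27.2, 49.6, 110 and 111 CPM (2.36 ± 0.31, adjusted p = 0.0664), with 55.9 CPM in SARAWT PBS 2. Of the desmosome list 12 of 13 tested had a positive value, with Dsp at 0.74 ± 0.21 and Perp at 0.40 ± 0.19, both of which had a part in choosing the cells. Klk7, Spink5 and Dsc1 were higher in Krt79/Krt17 than in Krt1/Krt10 cells, so here too the mix of classes and levels per cell cannot be told apart. In SARAWT basal cells, with 1 CPM added, the log2 differences with the longer and shorter gene list were -1.27 and -4.41 for Klk7. They were -1.98 and -0.69 for Dsc1, 2.25 and -0.75 for Sprr1a and 2.54 and 5.68 for Spink5. Many of these rest on levels near 0, where the added 1 CPM weighs heavily, so their size is not established. As log2 of CPM + 1, Dsc1 had 0 with bleomycin in both lists against 1.98 and 0.69 with PBS. Spink5 had 1.98 and 0 with PBS, and Klk7 1.52 and 0 with bleomycin. Sprr1a had 1.98 with PBS in the longer list.

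Immediate early genes had the opposite sign. Of 19 tested, all 19 had a negative log2 fold change (median -0.76), and 13 were below every PBS library in every bleomycin library, against 6.92% of all genes tested. Fos had 1532, 1172 and 1641 CPM with PBS against 211, 642, 475 and 785 CPM with bleomycin (-1.36 ± 0.34 SE, adjusted p = 0.241). Jun, its partner in AP-1, had 1168, 1424 and 1301 CPM against 272, 620, 857 and 778 CPM (-0.91 ± 0.29, adjusted p = 0.335). Atf3 had 628, 622 and 709 CPM against 20.4, 251, 238 and 244 CPM (-1.64 ± 0.51, adjusted p = 0.335). SARAWT PBS 2 had 638 CPM of Fos and 772 CPM of Jun, inside the bleomycin range, and 750 CPM of Atf3, above it. With SARAWT PBS 2 and SARATg PBS as the PBS libraries, 6 of 19 lay below both in every bleomycin library, against 8.39% of all genes.

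**Figure D5:**
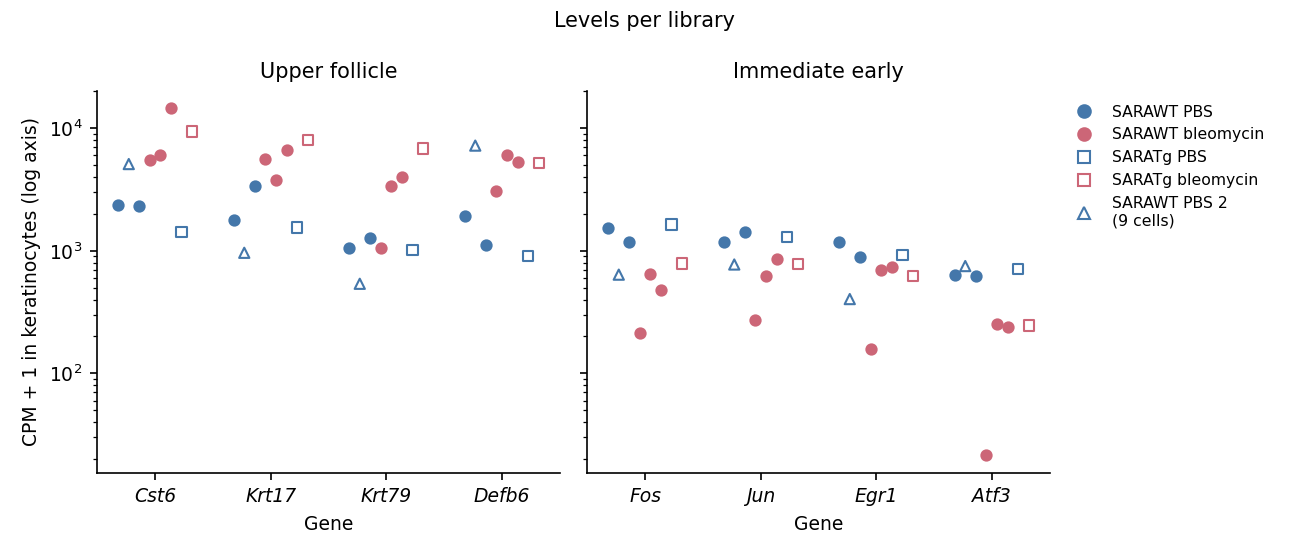
CPM + 1 on a log axis in keratinocytes for 4 upper follicle genes (left) and 4 immediate early genes (right), 1 point per library (circles, SARAWT; squares, SARATg; triangle, SARAWT PBS 2 with 9 cells, outside the fit). Cst6, Krt17 and Defb6 are higher and Fos and Jun lower in all 4 bleomycin libraries than in the 3 PBS libraries of the fit, but the triangle lies among the bleomycin values for Fos and Jun and above them for Defb6.

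Angptl4, Crabp2 and Id3 were chosen for their low p after the values were seen. Angptl4, a lipase inhibitor, had 70.1, 225 and 60.4 CPM with PBS against 13.6, 3.1, 11.2 and 6.89 CPM with bleomycin, and 0 CPM in SARAWT PBS 2. Crabp2, a retinoic acid carrier, had 27.8, 32.1 and 26.1 CPM against 61.1, 99.3, 142 and 140 CPM (2.12 ± 0.28 SE, adjusted p = 0.0664), and 11.2 CPM in SARAWT PBS 2. Id3, an inhibitor of differentiation factors, had 434, 657 and 348 CPM against 102, 109, 217 and 123 CPM (-1.66 ± 0.22, adjusted p = 0.0664), and 268 CPM in SARAWT PBS 2. For Crabp2 and Id3 the 9 cells of SARAWT PBS 2 lay on the side of the other PBS libraries. Blmh, the hydrolase that inactivates bleomycin, had 63.4, 64.7 and 57.3 CPM against 34.0, 62.0, 39.3 and 78.3 CPM, which overlapped (-0.09 ± 0.30, adjusted p = 0.99).

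Proliferation genes depended on the choice of PBS libraries. All 20 proliferation genes had a negative log2 fold change over both genotypes (median -0.77), but 2 of 20 were below every PBS library, against 6.92% of all genes. With SARAWT PBS 2 and SARATg PBS as the PBS libraries it was 0 of 20 against 8.39%. Mki67 had 141 and 76.1 CPM in the libraries labelled SARAWT PBS 1 and 3, 0 CPM in SARAWT PBS 2 and 51.4 CPM in SARATg PBS, against 74.7, 68.3, 7.48 and 53.7 CPM with bleomycin. All 10 tested stress keratins and alarmins had a positive log2 fold change (median 1.64, against 0.00 over all genes), and 3 lay above every PBS library in every bleomycin library, against 3.51% of all genes. These were Sprr1a, Sprr2h and Krt17, the last of which was used to choose the cells. It was 5 of 10 against 6.45% when SARAWT PBS 2 and SARATg PBS were the PBS libraries. Krt6a, a keratin of wounded epidermis, had 3165 CPM in SARAWT bleomycin 1 and 54.3 to 213 CPM in the other bleomycin libraries, and S100a8, an alarmin, 0 to 189 CPM with bleomycin and 0 to 56.7 CPM with PBS. Both overlapped between treatments.

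SARATg and SARAWT keratinocytes were compared in the same fit. No gene of 9044 passed in edgeR's quasi-likelihood test (0%), with 391 at an unadjusted p under 0.05, a lowest adjusted p of 0.248 and 7 called by DESeq2. The genes with that p were Lum, Col1a1 and Col3a1, matrix genes of fibroblasts, which had 50.3, 2215 and 843 CPM in SARATg PBS keratinocytes. Col1a1 had 114 CPM in SARATg bleomycin and at most 28.8 CPM in each SARAWT library. The fibroblast list was high in the other kept cells of SARATg PBS as well, at 87112 CPM against 3726 to 14540 CPM in the other 6 libraries with at least 10 keratinocytes, and the part of free RNA or doublets was not tested. Mouse Zfyve9 had a log2 difference of 0.26 (SE 0.90, adjusted p = 0.9999) in this fit, with the libraries labelled SARAWT PBS 1 and 3 counted as SARAWT. Leaving out SARATg PBS gave 6 genes and leaving out SARATg bleomycin 38. With SARAWT PBS 2 in place of the libraries labelled SARAWT PBS 1 and 3, edgeR called 3.

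Among the keratins, Krt10 had a log2 difference of 2.60 ± 1.24 between SARATg and SARAWT (adjusted p = 0.9999) and Krt1 2.23 ± 1.32 (adjusted p = 0.9999). Krt10 had 5821 and 4111 CPM in SARATg PBS and bleomycin, and 2892, 1485, 61.1, 4265 and 356 CPM in the SARAWT libraries of the fit. Only the SARATg PBS level was above all 5. Of 17 suprabasal genes, Krt1 and Klf4, a differentiation factor, were higher in both SARATg libraries than in every SARAWT library of the fit and 0 lower, against 2.66% and 3.16% of all genes tested. Krt5, Krt14, Krt17 and Krt79 had differences of 0.80 ± 0.43, 0.65 ± 0.44, -0.45 ± 0.32 and 0.26 ± 0.52, the first 3 a description, since they were used to choose the cells. The 2 SARATg libraries have no replicates within treatment, and the fit takes a lone library to vary like the SARAWT groups.

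Sex, gene list and counting software could not be told apart. Xist, the RNA of the inactive X chromosome, had 856 to 1488 CPM in keratinocytes of the 4 libraries counted with the longer list and at most 0.54 CPM in the other 4, while the Y-linked Ddx3y had 0 and 46.8 to 56.1 CPM. Both SARATg libraries belong to the second set. Each treatment group of SARAWT held libraries of both sets, with replicates 1 and 2 in the first and replicate 3 in the second.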

How the data were processed

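The authors deposited raw UMI counts per gene and cell barcode, made from 10x 3′ libraries with Cell Ranger (3.1.0 or 4.0.0 per the file headers, 3.0.2 per the labels) on mm10, with cell barcodes already called. Library totals ran from 3355217 to 69765525 UMIs. The 2 gene lists share 30406 Ensembl IDs, and only these entered the fits. Counts were summed per library with at least 10 cells and tested with edgeR 4.0.16 (R 4.3.3; quasi-likelihood test, filterByExpr, TMM, Benjamini-Hochberg, threshold 0.05), with DESeq2 1.42.0 as an alternative. Shares were compared by two-sided exact permutation over libraries. UMIs are counted at the 3′ end and were not scaled by length. Doublets were marked with scrublet in scanpy 1.11.5 and removed only in an alternative. The test was tried on simulated data. Named genes were, per comparison, up to 10 per direction past the threshold with no overlap between groups and a mean of at least 20 CPM, and per list the 4 members with the highest mean plus any that passed; other genes were chosen after their values were seen. The cells and all 16 gene lists were chosen with earlier results of these data known. Alternatives covered the filters on cells and genes, the keratin minimum, the class cuts, shared barcodes, normalization, the replicate block and each library left out. Kidney libraries were not used.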

Additional observations from a re-analysis of the deposited data

Results flagged for a closer look

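Several values had opposite signs in the 2 genotypes, with every SARAWT bleomycin library on one side of both PBS libraries (those labelled SARAWT PBS 1 and 3) and the SARATg pair, 1 library each, on the other. None of these differences between genotypes was tested, and genotype here is that of the labels. In SARAWT, treatment cannot be told apart from the high SARA signal of both PBS libraries. The basal share of keratinocytes differed between bleomycin and PBS by -16.1 percentage points in SARATg and by 22.3 points in SARAWT.

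For genes the differences are in CPM, bleomycin minus PBS. Over all keratinocytes, Tagln differed by 1.89 in SARATg and -213 in SARAWT, Slc39a10 by 43.7 and -277, Cux1 by 42.8 and -270, and Blmh by 21.0 and -19.0. In basal cells, Tagln differed by 6.36 in SARATg and -572 in SARAWT, Acta2 by 5.29 and -139, Col4a1 by 44.1 and -303, and Basp1 by 47.0 and -227. Slc7a8 differed by 3.53 and -136, Ckb by 17.3 and -103, and Tnc by 51.6 and -99.5, again in SARATg and SARAWT basal cells. Perp, a desmosomal gene of the rule, differed by -242 in SARATg and 400.4 in SARAWT basal cells. Except for Blmh, the negative SARAWT values rest on high levels in the libraries labelled SARAWT PBS 1 and 3. Some of the positive SARATg values rest on few UMIs. Tagln had 4 UMIs in SARATg PBS and 7 in SARATg bleomycin over all keratinocytes, and 3 and 5 in basal cells. In the same order, basal cells held 0 and 3 UMIs of Acta2 and 0 and 2 of Slc7a8. Counts this low do not establish a direction in SARATg, which was not tested.

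In the kidney libraries of the series, 25 cells met the rule for keratinocytes. They were not analysed further.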

How the results depend on the processing

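Where an alternative gave a value for a SARAWT share or for a gene past the threshold, its direction held. Several of these genes had no value with no minimum of cells or with SARAWT PBS 2 as control, where Hbegf and Arl5b had no UMI in basal cells. Counts of genes past the threshold did not hold. For SARAWT keratinocytes (3 genes) they were 91 with DESeq2, 447 with no filter on low counts, 0 and 1 with keratin minimums of 10 and 40 UMIs, 7 without shared barcodes, 0 with no minimum of cells, 8 with at least 30 cells (7 higher), 1 without the low-keratin class, 1 with the gene list as a covariate, 0 without the libraries labelled SARAWT PBS 1 and 3, and 0 to 29 with each library left out. For both genotypes (0 genes) they were, in the same order, 76, 394, 24 and 2, 16, 23 and 32, with 1 without predicted doublets, 62 without the libraries labelled SARAWT PBS 1 and 3, and 0 to 77 with each library left out. For genotype (0 genes) they were 7 with DESeq2, 143 with no filter, 3 with a keratin minimum of 10, 1 without the gene list covariate, 1 without the low-keratin class, 3 without the libraries labelled SARAWT PBS 1 and 3 and 0 to 38 with each library left out. For SARAWT basal cells (11 genes) they were 64 with DESeq2, 286 with no filter, 1 with either keratin minimum, 1 with a cell filter of 500 genes and 10% mitochondrial UMIs, 23 without shared barcodes, 0 with no minimum of cells, 24 with the gene list as a covariate, 0 without the libraries labelled SARAWT PBS 1 and 3, and 0 to 39 with each library left out. A minimum of 30 basal cells left no bleomycin library and could not be run. The gene list covariate, the low-keratin class and the libraries labelled SARAWT PBS 1 and 3 were chosen as alternatives after seeing the data. The cause of these changes was not tested.

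The replicate numbers were not taken to pair libraries. Deviations of same-numbered libraries from their group means correlated at 0.04 and 0.26, with only 2 pairs. Those of the library labelled SARAWT PBS 1 and of SARAWT bleomycin 2 correlated at 0.20. The deviations of 2 PBS libraries from their mean mirror each other, so these values cannot decide on pairing. A replicate block gave 305 genes (118 higher) in SARAWT keratinocytes and 152 in basal cells. Both of these fits rest on 2 pairs and leave 1 residual degree of freedom. In place of the gene list the block gave 10 over both genotypes and 14 for genotype. For the share of keratinocytes the paired difference was -1.47 points (exact p = 0.5).

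The difference in the share ran from -2.08 to -0.56 points with each library left out, in Krt79/Krt17 cells from 2.78 to 13.6, in Krt1/Krt10 cells from -12.2 to -2.90 and in basal cells from 13.5 to 29.1 points. The basal difference was 6.95 points with the class cuts halved, 33.7 with them doubled and 5.57 without the low-keratin class (exact permutation p = 1, 0.2 and 1), and the Krt1/Krt10 difference -11.8 without that class. The 9 to 42 keratinocytes of SARAWT PBS 2 and the SARAWT bleomycin libraries limit all comparisons.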
